A study of Mus musculus with 4 samples.

Results

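The genes described here are 10 genes of class I antigen presentation, chosen by name from the 33641 gene symbols of each deposited table: H2-K1, H2-D1, B2m, Tap1, Tap2, Tapbp, Psmb8, Psmb9, Psmb10 and Nlrc5. All 10 were found and all 10 passed the filter on low values. RNA levels were measured in 4 libraries of primary cardiac fibroblasts from wild-type C57BL/6J mice aged 12 weeks, 2 given vehicle and 2 given 10 ng/ml TGFbeta. Every culture, vehicle included, had been labelled with 4-thiouridine, a uridine analogue, 20 and 4 h before crosslinking with 368 nm light. The series' design calls the libraries RNA eluted from the RNA-binding protein HuR, while the sample labels call them total RNA, so a level below may be the abundance of a transcript in the cell or the amount recovered on HuR, which cannot be told apart. Nothing in the labels ties a replicate to an animal or culture of its own, so p-values rest only on the spread between these libraries. For each gene, the fit moderates that spread, and the SE given, with the spread of other genes.

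Class I molecules display peptides from inside the cell to cytotoxic T cells. Peptides come from the proteasome, in which the inducible catalytic subunits encoded by Psmb8, Psmb9 and Psmb10 can take the places of the constitutive subunits encoded by Psmb5, Psmb6 and Psmb7, forming the immunoproteasome. The TAP transporter (Tap1, Tap2) carries peptides into the endoplasmic reticulum, and tapasin (Tapbp) holds empty class I molecules next to it. A class I molecule is a heavy chain, in these mice from H2-K1 or H2-D1, paired with beta-2 microglobulin (B2m). Nlrc5 encodes the transactivator of class I promoters. Interferons are known to raise all of these genes, and fibroblasts express them at rest.

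Sequences before the RefSeq starts are shown because class I genes are known for shared promoter elements that Nlrc5 complexes, interferon factors and NF-kappaB use. RefSeq (GRCm38.p6) gave a start for 8 of the 10 genes; Tap2 and Nlrc5 had none. GENCODE M21 annotates longer transcripts for several of them, so 4 of the 8 windows, those of H2-D1, Tapbp, Psmb8 and Psmb9, lie wholly within their own gene, that of Tap1 lies within Psmb9, and that of Psmb10 is 52 bases inside its gene. A match there is before the RefSeq start but within transcribed sequence of the other annotation. The window of H2-K1 lies outside its gene, and that of B2m does but for 1 base. The 250 bases before each start were searched on both strands, with motifs chosen after these sequences had been seen, for a kappaB element (GGGNNTTCC, or the same letters with a further N), an interferon-stimulated response element or ISRE (GAANNGAAA, or the same letters with a further A after GAA), the core of the X2 box (TGACG), the CCAAT box and the gamma-activated site or GAS (TTCNNNGAA). Capitals mark every match, whichever strand it reads on, and no matches of different motifs overlapped in the 8 windows. H2-K1 (chr17:34000348-34000597, minus strand) and B2m (chr2:122147437-122147686, plus strand) are given in full.
H2-K1: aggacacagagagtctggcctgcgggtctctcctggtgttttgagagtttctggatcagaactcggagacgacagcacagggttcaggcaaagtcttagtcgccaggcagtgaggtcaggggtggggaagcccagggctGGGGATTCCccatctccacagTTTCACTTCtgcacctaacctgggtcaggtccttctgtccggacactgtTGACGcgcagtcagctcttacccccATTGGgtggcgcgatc
B2m: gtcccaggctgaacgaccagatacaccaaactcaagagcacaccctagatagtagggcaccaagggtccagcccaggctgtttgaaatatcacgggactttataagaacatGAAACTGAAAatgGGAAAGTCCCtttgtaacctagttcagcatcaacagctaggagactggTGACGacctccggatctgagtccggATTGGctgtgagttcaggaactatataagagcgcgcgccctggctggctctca

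H2-K1, H2-D1 and B2m each held a kappaB, an ISRE, an X2 and a CCAAT match. Over all 32851 RefSeq windows of this length, 8.26% held the kappaB letters, 8.82% the ISRE letters, 17.8% TGACG, 33.8% CCAAT and 7.02% the GAS letters. The windows of H2-K1 and H2-D1 were identical at 89.5% of 190 aligned bases. Stretches of 30 bases show the elements side by side, with only the named matches in capitals: kappaB and ISRE in H2-K1 and H2-D1, X2 in the window of Tap1, and GAS in that of Psmb8. The H2-K1 stretch lies outside its annotated gene, while the H2-D1 and Psmb8 stretches lie within those genes and the Tap1 stretch within Psmb9.
H2-K1 (chr17:34000429-34000458, minus strand): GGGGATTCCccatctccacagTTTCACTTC
H2-D1 (chr17:35262923-35262952, plus strand): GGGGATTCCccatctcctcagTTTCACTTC
Tap1 (chr17:34187458-34187487, plus strand): cccagagacaggTGACGacagagggtcctg
Psmb8 (chr17:34198088-34198117, plus strand): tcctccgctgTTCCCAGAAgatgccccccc
The H2-K1 and H2-D1 stretches differed at 1 base. The starts of Tap1 and Psmb9 lie 226 bases apart and point away from each other, so both windows hold the same X2 and CCAAT letters. Psmb8 had a GAS match alone, Tapbp CCAAT matches alone, and Psmb10 none of the 5 motifs in its window. These matches describe the letters only.

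Levels are TPM, a transcript abundance scaled for length and to a total of 1000000 in each library; read depth is unknown. Between 20945 and 21671 gene symbols per library lay above 0. Changes are differences of mean log2(TPM + 1), TGFbeta minus vehicle, tested with limma over the 15815 genes whose mean TPM reached 1, and a gene was called at a Benjamini-Hochberg adjusted p under 0.05. Over all tested genes 692 were called lower (4.38%) and 244 higher (1.54%), and the median log2 change was -0.13, which median scaling moved to 0.02 (399 called lower and 410 higher). Every call in the table, those below included, was lost when either vehicle library was left out (limma, 0 genes each; 3045 at an unadjusted p under 0.05 without vehicle 1 and 2402 without vehicle 2).

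All 10 class I genes had a lower mean with TGFbeta, as 64.8% of tested genes had a log2 change below 0, and 8 of them had both TGFbeta libraries below both vehicle libraries. Only Psmb8 was called by limma. Against the 1 of 10 called lower and 0 higher stand 4.38% and 1.54% of all tested genes. Separation of the libraries in that direction was found for 39.8% of tested genes. At an unadjusted limma p under 0.05 the count was 7 of 10 lower, against 18.5% of tested genes, and 0 of 10 higher, against 5.98%. The members' median log2 change was -0.49, or 0.37 below the median of all tested genes, and ran from -1.85 for Psmb8 to -0.18 for B2m. Together the 10 genes took 0.272% and 0.324% of all TPM with vehicle and 0.239% and 0.240% with TGFbeta. In bulk RNA, fewer cells expressing a gene and less RNA per cell cannot be told apart.

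**Figure D1:**
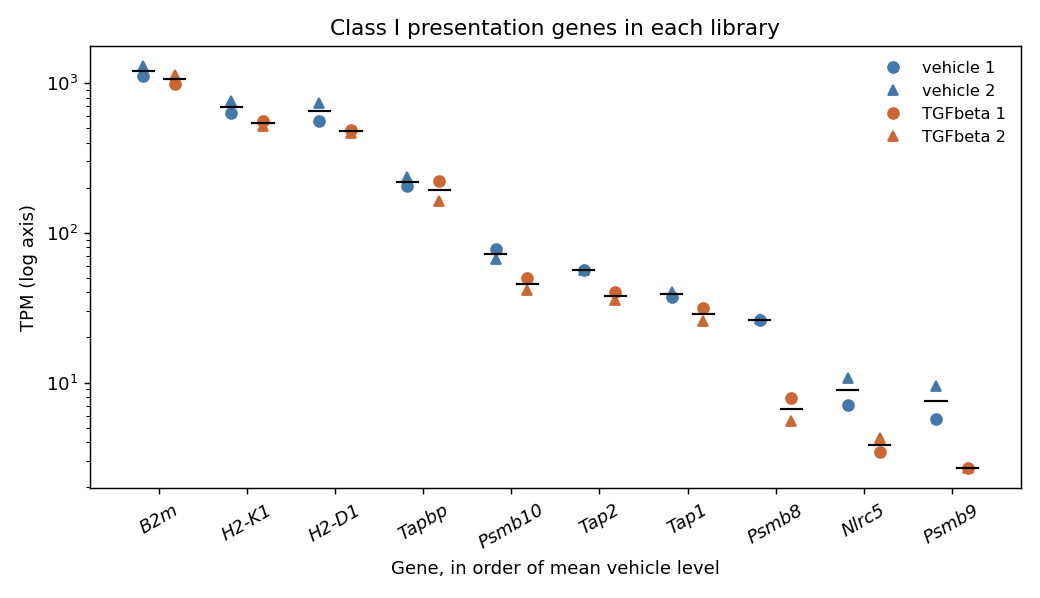
TPM on a log axis for each of the 10 genes in the 2 vehicle (blue) and 2 TGFbeta (orange) libraries, with a black line at each group's mean. Only B2m and Tapbp have overlapping groups, and the widest gap is that of Psmb8, from 26.4 TPM in both vehicle libraries to 7.84 and 5.55 TPM.

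The largest change among the 10 genes was that of the immunoproteasome gene Psmb8. Psmb9 came next (-1.19), while Psmb10 (-0.66) changed less than Nlrc5 (-1.01). Psmb8, whose product takes the place of the chymotrypsin-like subunit Psmb5, had 26.4 TPM in each vehicle library and 7.84 and 5.55 TPM with TGFbeta. The groups lay far apart and the vehicle libraries were almost equal. Psmb8 fell by 1.85 on the log2 scale (SE 0.20, limma adjusted p = 0.0107), a 3.94-fold lower mean TPM. Leaving out TGFbeta 1 gave -2.06 (limma adjusted p = 0.0353) and leaving out TGFbeta 2 gave -1.63 (0.0275), both called. It was not called without vehicle 1 (limma adjusted p = 0.0916), without vehicle 2 (0.128) or when every gene above 0 was tested (0.0742).

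Psmb9, the counterpart of Psmb6, had 5.73 and 9.42 TPM with vehicle and 2.67 and 2.68 TPM with TGFbeta. Both vehicle libraries were higher, vehicle 2 by more. Its log2 change was -1.19 (SE 0.26, limma adjusted p = 0.0536), just outside the threshold. Psmb10, the counterpart of Psmb7 and the most abundant of the inducible subunits, had 78.3 and 67.1 TPM with vehicle and 50.1 and 41.3 TPM with TGFbeta. Its groups did not overlap either, with a log2 change of -0.66 (SE 0.16, limma adjusted p = 0.0695). A pseudocount of 5 moved the change of Psmb9 to -0.70. Psmb9 and Psmb10 passed with a mean TPM of at least 5 (limma adjusted p = 0.0315 and 0.0369) and with protein-coding genes alone (0.0140 and 0.0321). That last setting, here and below, also left out genes whose values repeated those of an earlier gene in every library. In the robust fit Psmb9 passed too (limma adjusted p = 0.0343), and Psmb10 did not (0.0531).

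None of the constitutive partners passed the test. Psmb5 had 157 and 142 TPM with vehicle and 156 and 159 TPM with TGFbeta (log2 change 0.08, SE 0.13, limma adjusted p = 0.751). Psmb6 had 235.2 TPM in both vehicle libraries and 218 and 235.3 TPM with TGFbeta (-0.06, SE 0.13, limma adjusted p = 0.835), a value that turned to 0.11 after median scaling and 0.00052 without TGFbeta 1. Psmb7 had 96.1 and 97.3 TPM with vehicle against 109 and 132 TPM (0.30, SE 0.15, limma adjusted p = 0.264). In the GENCODE M21 transcripts 54.1% of the windows of 50 bases in Psmb5 also occur in another gene, mainly the entry Gm3375, so the level of Psmb5 depends on how shared reads were assigned.

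Set against its partner within each library, which removes the scaling of the library, each inducible subunit was lower with TGFbeta. Psmb8 made up 14.4% and 15.7% of the summed TPM of Psmb8 and Psmb5 with vehicle and 4.77% and 3.37% with TGFbeta. The share of Psmb9 in its pair was 2.38% and 3.85% with vehicle and 1.21% and 1.13% with TGFbeta. For Psmb10 it was 44.9% and 40.8% against 31.5% and 23.9%. No pair overlapped between groups, and how often other pairs of genes are separate in this way was not worked out. The log2 ratio of inducible to constitutive subunit (TPM + 1) differed by -1.93 for Psmb8, -1.13 for Psmb9 and -0.96 for Psmb10, each a mean of 2 libraries against 2. The difference for Psmb10 holds both its own log2 change (-0.66) and that of Psmb7 (0.30). These ratios are given without a p, since an exact permutation test, which was not run, cannot go below p = 0.333 with 4 libraries.

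**Figure D2:**
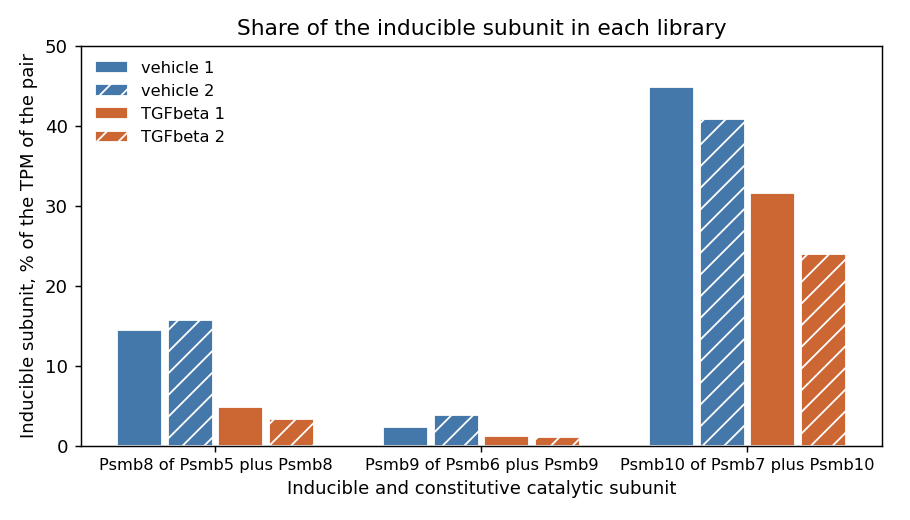
Share of the inducible subunit in the summed TPM of the inducible and constitutive subunit, as a percentage, 1 bar per library (blue vehicle, orange TGFbeta). In each of the pairs both TGFbeta bars are lower than both vehicle bars, from 44.9% and 40.8% to 31.5% and 23.9% for Psmb10.

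The genes of the class I molecule itself did not pass the test. H2-K1, a classical heavy chain gene, had 636 and 758 TPM with vehicle and 560.2 and 517 TPM with TGFbeta. Both TGFbeta libraries lay below vehicle 1, by less than the gap between the vehicle libraries. The log2 change of H2-K1 was -0.37 (SE 0.15, limma adjusted p = 0.215), and it moved to -0.24 without vehicle 2 and to -0.20 after median scaling. H2-D1, the other classical heavy chain gene, had 558 and 736 TPM against 486 and 467 TPM, again without overlap, and a log2 change of -0.43 (SE 0.18, limma adjusted p = 0.203). That of H2-D1 moved to -0.23 without vehicle 2 and to -0.26 after median scaling. Vehicle 2 was the highest library for both heavy chain genes. In H2-K1, 9.63% of the windows of 50 bases also occurred in transcripts of other genes, and 12.8% in H2-D1, mostly of the class I family, so their levels could include reads of each other and of relatives.

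B2m, the light chain gene, had 1111 and 1301 TPM with vehicle and 983 and 1139 TPM with TGFbeta. The groups overlapped, and the log2 change of -0.18 (SE 0.17) did not pass (limma adjusted p = 0.557). It moved to -0.07 without vehicle 2, -0.08 without TGFbeta 1 and -0.02 after median scaling, and to -0.30 without vehicle 1 and -0.29 without TGFbeta 2 or after quantile normalization. None of its windows of 50 bases occurred in another gene, although the annotation places Patl2 across the whole of B2m on the opposite strand. The summed TPM of H2-K1 and H2-D1 per TPM of B2m was 1.07 and 1.15 with vehicle and 1.06 and 0.864 with TGFbeta, with TGFbeta 1 close to vehicle 1.

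The peptide transporter genes had changes between those of Psmb10 and B2m. Tap1 had 37.4 and 40.1 TPM with vehicle and 31.7 and 25.9 TPM with TGFbeta (log2 change -0.42, SE 0.16, limma adjusted p = 0.174). Tap2 had 56.5 and 56.1 TPM with vehicle and 40.3 and 35.6 TPM with TGFbeta (-0.56, SE 0.14, limma adjusted p = 0.0716). Neither gene had overlapping groups, and TGFbeta 2 was the lowest library for both. The change of Tap1 moved to -0.28 without TGFbeta 2 or after quantile normalization, and to -0.26 after median scaling. Tap2 passed with a mean TPM of at least 5 (limma adjusted p = 0.0459) and with protein-coding genes alone (0.0418). Tapbp, which encodes tapasin, had 204 and 234 TPM with vehicle and 224 and 163 TPM with TGFbeta. Those groups overlapped, with TGFbeta 1 between the vehicle libraries, and the log2 change of -0.20 (SE 0.19, limma adjusted p = 0.576) turned to 0.03 without TGFbeta 2.

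Nlrc5, the class I transactivator, was among the least abundant of the 10, with 7.09 and 10.7 TPM with vehicle and 3.41 and 4.25 TPM with TGFbeta. Its mean TPM was 2.31-fold lower with TGFbeta and the groups were separate, but the log2 change of -1.01 (SE 0.24) did not pass (limma adjusted p = 0.0668). It passed with a mean TPM of at least 5 (limma adjusted p = 0.0412), in the robust fit (0.0477) and with protein-coding genes alone (0.0226). A pseudocount of 5 moved the change to -0.64.

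**Figure D3:**
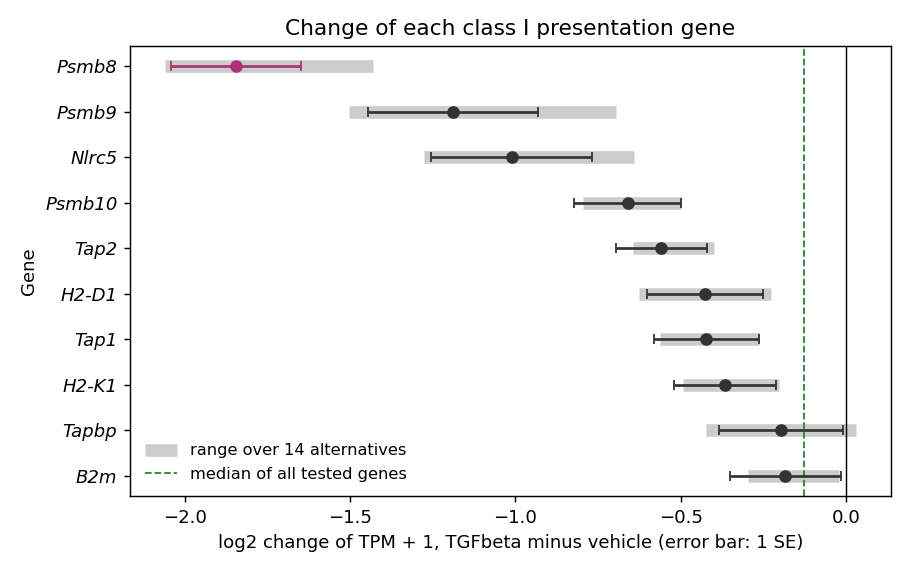
Log2 change of TPM + 1, TGFbeta minus vehicle, for each gene with 1 SE, over a grey bar from the lowest to the highest value under 14 alternatives; the dashed line is the median of all tested genes, and Psmb8 (coloured) is the called gene. The changes run from -1.85 for Psmb8 to -0.18 for B2m, and only the bar of Tapbp crosses 0.

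The order of the mean levels was the same in both groups: B2m, H2-K1, H2-D1, Tapbp, Psmb10, Tap2, Tap1, Psmb8, Nlrc5 and Psmb9. With vehicle, the libraries of neighbours in this order overlapped for H2-K1 with H2-D1 and for Nlrc5 with Psmb9, and with TGFbeta no neighbours overlapped. Relative to B2m within each library, 7 of the other 9 genes had both TGFbeta libraries below both vehicle libraries, and Tap1 and Tapbp overlapped. The share of all tested genes separated in this way was not worked out. Vehicle 1 and TGFbeta 1 were nearly equal for H2-K1 (log2 ratios of -0.80 and -0.81) and close for H2-D1 (-0.99 and -1.01). The difference in the log2 ratio to B2m was -1.66 for Psmb8, -1.0 for Psmb9, -0.83 for Nlrc5, -0.48 for Psmb10 and -0.38 for Tap2. For H2-K1 and H2-D1 it was -0.18 and -0.24, and for Tap1 and Tapbp -0.24 and -0.01. The widest within-library differences were those of Psmb8, Psmb9 and Nlrc5. They are given without a p for the same reason as the subunit ratios.

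By position, 4 of the genes sit side by side on chromosome 17 of GRCm38 (GENCODE M21, matched by symbol) within 34335 bases: Psmb9 (34181987 to 34187764, minus strand), Tap1 (34187553 to 34197225, plus), Psmb8 (34197721 to 34201454, plus) and Tap2 (34203527 to 34216321, plus). H2-K1 (33996017 to 34000347, minus), Tapbp (33915899 to 33929292, plus) and H2-D1 (35262730 to 35267499, plus) lie on the same chromosome, B2m on chromosome 2 (122147686 to 122153083, plus), and Psmb10 (105935735 to 105938444, minus) and Nlrc5 (94434356 to 94527272, plus) on chromosome 8. Psmb9 and Tap1 overlap by 212 bases on opposite strands, and whether the authors counted by strand is not given in the sources used here. Within the 4-gene cluster the log2 changes were -1.19, -0.42, -1.85 and -0.56 in map order. The neighbours Tap1 and Psmb9 share the stretch between their RefSeq starts. Neither was called, and whether their changes differ in size was not tested. Of 9 other protein-coding genes within 100 kb, 4 were tested and none was called by limma (0 also at an unadjusted p under 0.05): Brd2, which encodes a chromatin reader, had 0.09, and the class II genes H2-DMa, H2-DMb1 and H2-Eb1 had -0.34, -0.13 and 0.22. The other 5 were class II genes below the filter.

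**Figure D4:**
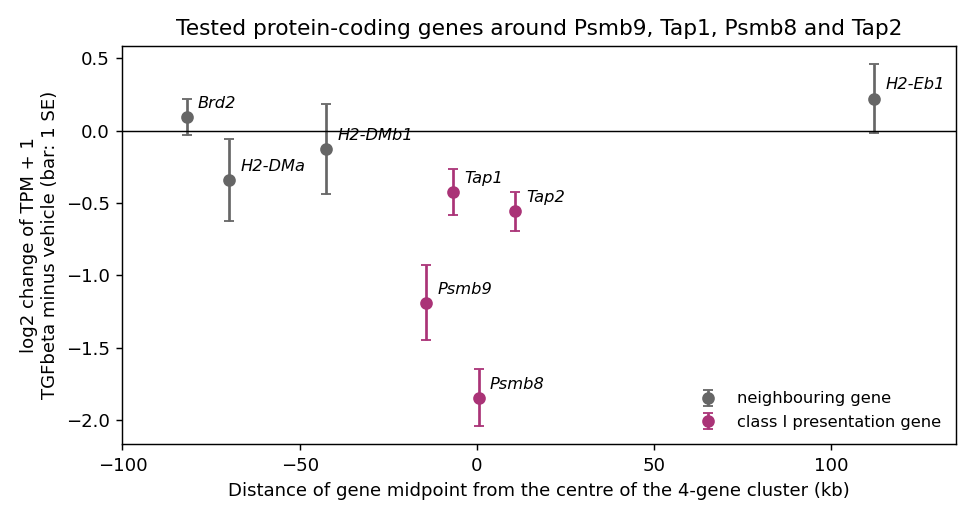
Log2 change of TPM + 1 with 1 SE against the distance of each gene's midpoint from the centre of the cluster of Psmb9, Tap1, Psmb8 and Tap2, for the tested protein-coding genes within 100 kb. The 4 class I presentation genes lie between -1.85 and -0.42, and the 4 neighbours between -0.34 and 0.22.

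Related genes were read from lists. Of the other heavy chains and class I-like genes, 21 of 25 symbols were in the table and 17 were tested: 3 fell, 0 rose and 14 did not pass, with a median log2 change of -0.70 (all tested genes: -0.13). Of all tested genes 4.38% were called lower and 1.54% higher. Both TGFbeta libraries lay below both vehicle libraries for 16 of the 17, against 39.8% of all tested genes. In the heavy chain genes of this list that were searched, 9.38% to 34.5% of the windows of 50 bases also occurred in other genes. Their levels could therefore include reads of each other, and the 17 are not independent. The 3 that fell encode class I-like proteins with tasks other than peptide display to cytotoxic T cells. Fcgrt, the neonatal Fc receptor that recycles antibodies and albumin, fell from 321 and 358 TPM to 192 and 188 TPM (log2 change -0.83, SE 0.13, limma adjusted p = 0.0269). Cd1d1, which presents lipids, fell by 1.21 (limma adjusted p = 0.0445), and Hfe, a regulator of iron uptake, by 0.89 (limma adjusted p = 0.0401). Cd1d1 had only 5.76 and 6.82 TPM with vehicle and 1.68 and 2.70 TPM with TGFbeta. A pseudocount of 5 moved the changes to -0.65 for Cd1d1, -0.66 for Hfe and -0.82 for Fcgrt. After median scaling none of the 3 was called, and none without TGFbeta 1 or without TGFbeta 2 (limma, 0 each).

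Among 28 regulators of class I genes and of interferon signalling, 7 fell, 0 rose and 21 did not pass, with a median of -0.47, where 4.38% of all tested genes were called lower and 1.54% higher. Irf1, an interferon-induced factor known to bind class I promoters, fell from 33.8 and 32.7 TPM to 13.9 and 14.5 TPM (log2 change -1.17, SE 0.14, limma adjusted p = 0.0143). The groups were far apart and the pairs close. Socs3, a feedback inhibitor of cytokine receptors, fell by 1.06 (limma adjusted p = 0.020). Stat2, which carries type I interferon signals to the nucleus, fell by 0.98 (limma adjusted p = 0.0422), and Rfx5, a subunit of the factor that binds the X box, by 0.88 (0.0475). Also among those that fell, and named after their values were seen, were the interferon-gamma receptor gene Ifngr1 at -0.86 (limma adjusted p = 0.0264) and the kinase gene Tyk2 at -0.84 (0.0371). Ciita, the class II transactivator, was near the filter at 1.73 and 1.71 TPM with vehicle and 1.22 and 1.03 TPM with TGFbeta (-0.35, limma adjusted p = 0.378). After median scaling 2 of the regulators were called lower, Irf1 and Socs3, and after quantile normalization 3. Without TGFbeta 1 the count was 0, and without TGFbeta 2 it was 1, Irf1 (limma adjusted p = 0.0470).

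Of 13 tested GTPase genes that interferon-gamma induces, 3 fell, 0 rose and 10 did not pass (median -0.62), against the same 4.38% and 1.54% of all tested genes. Gbp6 fell by 1.32 (limma adjusted p = 0.0242), Gbp2 by 1.0 (0.0223) and Irgm2 by 0.85 (0.0452), all encoding GTPases of cell-autonomous defence. Gbp6 had only 5.13 and 5.75 TPM with vehicle and 1.52 and 1.62 TPM with TGFbeta. A pseudocount of 5 moved the changes to -0.67 for Gbp6, -0.86 for Gbp2 and -0.68 for Irgm2. Irgm1, another of them and named after its values were seen, had 0.66 (limma adjusted p = 0.0560). Irgm1 was called higher with a mean TPM of at least 5 (limma adjusted p = 0.0295), in the robust fit (0.0427) and with protein-coding genes alone (0.0253). Quantile normalization (limma adjusted p = 0.0351) and median scaling (0.0291) also gave that call. It was not called with either other pseudocount, with every gene above 0 tested, without an intensity trend or with the replicate block. Without TGFbeta 1 and without TGFbeta 2 the count was 0 each. Only 5 of 10 class II genes were tested, 0 were called by limma (0 also at an unadjusted p under 0.05), and the median was -0.20. The 2 largest changes there were those of H2-DMa and Cd74, the invariant chain gene, at -0.34 and -0.33 (limma adjusted p = 0.513 and 0.663).

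The general machinery of peptide supply and loading had list medians above 0. Of 12 tested genes of peptide loading and trimming 0 were called by limma, with a median of 0.14. At an unadjusted limma p under 0.05, 1 was lower and 2 were higher, against 18.5% and 5.98% of all tested genes. Calr, which encodes the chaperone calreticulin of the loading complex, had 661 and 642 TPM with vehicle and 1012 and 1330 TPM with TGFbeta (0.83, limma adjusted p = 0.0524). Calr was called higher after median scaling (1.0, limma adjusted p = 0.0376), after quantile normalization (0.0391), with a mean TPM of at least 5, in the robust fit and with protein-coding genes alone. Canx, which encodes calnexin, had 0.63 (limma adjusted p = 0.108). Among 14 constitutive subunits of the proteasome core 0 were called by limma (1 higher at an unadjusted p under 0.05, against 5.98% of all tested genes). The median was 0.12, with Psmb2 at 0.38 (limma adjusted p = 0.126) and Psmb7 at 0.30 the largest.

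Of 10 proteasome activator and assembly genes 0 were called by limma, and the median was 0.03. At an unadjusted limma p under 0.05, 2 of the 10 were lower, near the 18.5% of all tested genes. The 2 were Psme1 and Psme2, which encode the interferon-inducible PA28 activator. Psme1 had 152 and 151 TPM with vehicle and 85.5 and 107 TPM with TGFbeta (-0.66, SE 0.15, limma adjusted p = 0.0608). Psme2 had 163 and 186 TPM against 106 and 116 TPM (-0.65, SE 0.14, limma adjusted p = 0.0529). Both had separate groups and both were called with a mean TPM of at least 5, in the robust fit and with protein-coding genes alone.

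**Figure D5:**
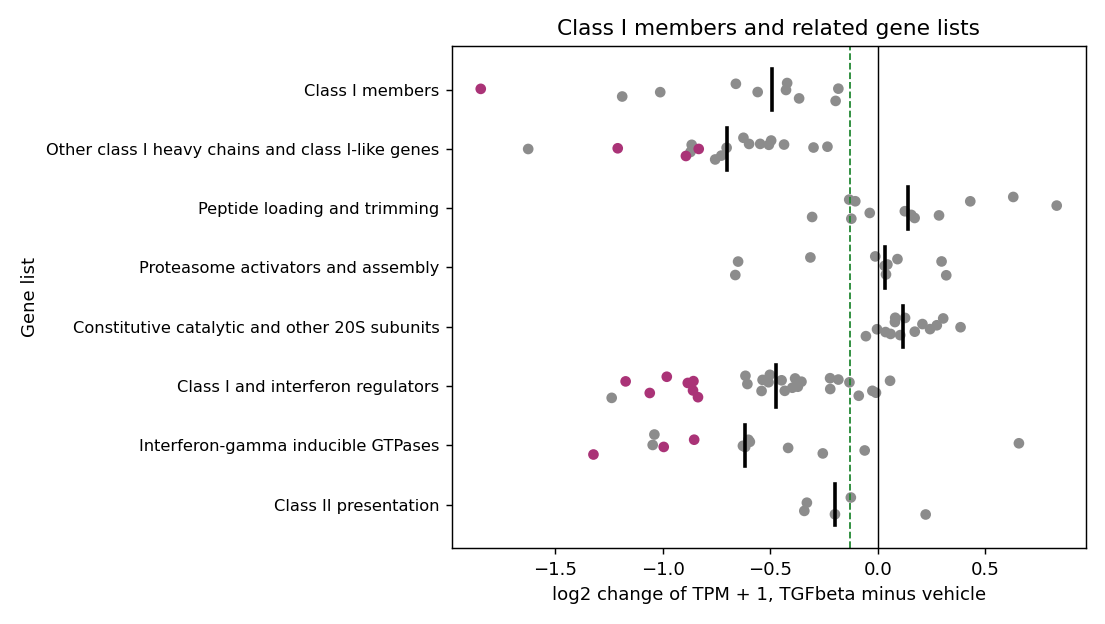
Log2 change of TPM + 1, TGFbeta minus vehicle, for each tested gene of the class I members and of 7 related lists; coloured points were called by limma, black bars are list medians, and the dashed line is the median of all tested genes. Medians are -0.49 for the class I members, -0.70 for other class I genes and -0.47 for regulators, against 0.14 for peptide loading and 0.12 for the constitutive proteasome core.

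The pattern over the 4 libraries was not particular to these genes. The members' median centred log2(TPM + 1) was 0.20, 0.29, -0.19 and -0.36 in vehicle 1, vehicle 2, TGFbeta 1 and TGFbeta 2. Of 9365 other genes whose mean TPM reached 10, 643 had centred values within a Euclidean distance of 0.2 of it. The nearest 5 were Vps11, Ppil2, Frs3, Anxa11 and Rnf40, at distances of 0.04 each, with log2 changes from -0.55 to -0.52, none of them called by limma.

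Markers of fibroblasts and of other cells were measured beside these genes, since macrophages and endothelial cells carry class I molecules at high levels. All 12 fibroblast markers were above 0 in every library, and their summed TPM was 26466 and 23554 with vehicle and 22113 and 21838 with TGFbeta. Of this, Col3a1 gave 11207 and 9018 TPM against 6532 and 6979 TPM. Both TGFbeta sums were lower, and 9 of the 12 log2 changes were negative (median -0.41), against 64.8% of all tested genes. Called lower were 2 of the 12 and higher 0, against 4.38% and 1.54%. The 2 were Pdgfra, a receptor of resting fibroblasts, which fell by 1.42 (limma adjusted p = 0.0106), and the transcription factor gene Tcf21, by 1.11 (0.0148). Groups were separate with TGFbeta below for 8 of the 12, against 39.8% of all tested genes. They were separate with TGFbeta above for 2, against 15.5%: Col1a1 (0.91) and Col1a2 (0.48), neither called by limma.

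Of the 18 macrophage and leukocyte markers 12 were tested, and limma called 0, with a median log2 change of -0.26. At an unadjusted limma p under 0.05, 2 of the 12 were lower, against 18.5% of all tested genes. Their summed TPM was 89.9 and 113 with vehicle and 74.6 and 78.8 with TGFbeta, of which Lyz2 gave 55.2 and 66.4 against 42.9 and 48.1 TPM. Separate groups with TGFbeta below were found for 4 of the 12, against 39.8% of all tested genes: Cd14 (-0.70), Cd68 (-0.46), Tyrobp (-0.43) and Lyz2 (-0.41). Separate groups with TGFbeta above were found for 1, C1qb (0.36), against 15.5% of all tested genes. The leukocyte gene Ptprc overlapped, at 1.05 to 1.35 TPM, and Nkg7 was at 0 in all 4 libraries.

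The summed TPM of 10 endothelial markers was 86.2 and 90.5 with vehicle and 74.2 and 69.4 with TGFbeta. Of the 9 tested, 7 had a negative change (median -0.23), against 64.8% of all tested genes. At an unadjusted limma p under 0.05, 3 of the 9 were lower (Egfl7 at -0.78, Esam at -0.73 and Cdh5 at -0.56), against 18.5%. Called higher was 1, Erg, which rose by 1.57 (limma adjusted p = 0.0163), against 1.54% of all tested genes. For 8 pericyte and smooth muscle markers the sum was 113 and 120 with vehicle and 84.0 and 86.0 with TGFbeta. Of this, Notch3 gave 74.0 and 83.9 TPM against 21.1 and 17.4 TPM. Of the 6 tested, 4 had a positive change (median 0.43). Notch3 fell by 1.99 (limma adjusted p = 0.00633) and Mcam rose by 0.98 (0.0242), where 4.38% of all tested genes were called lower and 1.54% higher. Rgs5 stood at 13.5 TPM in TGFbeta 2 against 1.95 to 2.47 TPM in the other libraries. The sum of 10 cardiomyocyte markers was 89.8 and 132 against 69.8 and 75.3, with 0 of 6 tested called by limma. At an unadjusted limma p under 0.05, 2 of the 6 were lower, against 18.5% of all tested genes. All these sums were lower in both TGFbeta libraries. A sum follows its most abundant markers, such as Notch3 and Col3a1, and every list held tested markers with changes of both signs. Single markers were picked for mention with their values known. The part of such cells in the class I values was not tested.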

How the data were processed

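RNA was sequenced from 4 libraries of mouse cardiac fibroblasts, 2 vehicle and 2 TGFbeta, grouped by the sample titles. Each library has 1 deposited table, with TPM per gene symbol as its unit per the file headers. The sources used here name no aligner, quantifier, annotation or build. Read depth cannot be had from TPM, so no counting interval is given. Genes whose mean TPM reached 1 were compared as log2(TPM + 1) with limma 3.58.1 in R 4.3.3 (eBayes with an intensity trend, treatment as the only term, two-sided, Benjamini-Hochberg over all tested genes, threshold 0.05). The fit was also run on simulated data, where the only requirement was that median estimates lay near the set changes. That run does not show how reliable calls from 2 libraries per group are. GENCODE M21 matched 32159 of the 33641 symbols directly. Motifs, shared windows of 50 bases and alignments were computed in Python with Biopython 1.88, with promoters from RefSeq.

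The members, gene lists and rules were chosen with earlier results of these data known. Named from the 7 lists were all called members, or the 5 with the largest change if more were called, the 2 largest where none was, fixed genes (Psmb5, Psmb6, Psmb7, Irf1, Rfx5, Ciita), and the 5 nearest patterns; 1 gene that the rule names is not reported here. The 14 alternatives were pseudocounts of 0.1 and 5, other filters, scalings and eBayes settings, protein-coding genes alone, the replicate block and each library left out. The protein-coding setting also left out genes whose values repeated those of an earlier gene in every library.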

Additional observations from a re-analysis of the deposited data

How the results depend on the processing

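Of the 10 genes, 9 had a negative log2 change under all 14 alternatives, and Tapbp ran from -0.42 to 0.031 with 1 library left out, the latter without TGFbeta 2. Outside them, Psmb6 turned to 0.11 after median scaling and ran from -0.11 to 0.00052 with 1 library left out, the latter without TGFbeta 1. The class I genes called lower by limma were 1, 0 with every gene above 0 tested, 5 with a mean TPM of at least 5, 3 in the robust fit and 5 with protein-coding genes alone; leaving out 1 library gave 0 to 1. Calls over all tested genes also rose in these settings. With a mean TPM of at least 5, 1034 of 11463 genes were called lower and 346 higher. In the robust fit it was 910 and 321 of 15815, and with protein-coding genes alone 1284 and 427 of 13730. The median of the class I genes, -0.49, moved to -0.33 after median scaling and ran from -0.60 to -0.43 with 1 library left out. Over the table, genes called lower (692) were 0 with every gene above 0 (limma, 4348 at an unadjusted p under 0.05), 401 after quantile normalization, 399 after median scaling, 437 without a trend and 1284 with protein-coding genes alone, and 0 to 243 with 1 library left out. Genes called higher (244) were 0 with every gene above 0, 410 after median scaling and 427 with protein-coding genes alone, and 0 to 101 with 1 library left out. The 13 called genes of the related lists became 0, 21 (mean TPM of at least 5), 8 (quantile), 6 (median scaling), 7 (no trend), 20 (robust) and 25 (protein-coding), and 0 to 1 with 1 library left out. A pseudocount of 5 moved the subunit ratio difference to -1.51 for Psmb8 and -0.64 for Psmb9; with 1 library left out the differences ran from -2.15 to -1.70, -1.45 to -0.82 and, for Psmb10, -1.24 to -0.69. The cause was not tested.

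The replicate numbers share only a number: deviations of same-numbered libraries had a correlation of -0.05 over tested genes. With the replicate block, 445 genes were called lower, 1 of the 10 class I genes and 7 genes of the related lists. Where a group was down to 1 library, its spread was taken from the other group. Depth is unknown.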
